A study of Gallus gallus with 32 samples.

Results

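The livers described here are the 12 libraries with the highest and the 12 with the lowest SQLE transcript level among 32 broiler liver libraries, 24 of 32 in all. SQLE encodes squalene epoxidase, which adds oxygen to squalene in the first oxygen-dependent step of sterol synthesis. The groups were chosen by the measured SQLE values, whatever the diet, so SQLE is given as a description with no test. The other genes were tested for association with that ranking, and no treatment separates the groups. The birds were Arbor Acres broilers, chickens bred commercially for meat. Per the labels, the diets were control (0 g/kg), Arg (1.8 g/kg), 5X Arg (9 g/kg) and 10X Arg (18 g/kg), with 8 libraries of each. The labels give no age or sex and do not say whether libraries of 1 diet were from separate birds, so p-values measure the spread between libraries, which may be partly technical. All values are TPM, the transcript abundance unit, a share of a library's RNA per transcript length.

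Animal cells build cholesterol from acetyl-CoA through mevalonate, farnesyl diphosphate, squalene and lanosterol. The transcription factor SREBP2, encoded by SREBF2, is held in the endoplasmic reticulum with SCAP by INSIG proteins when sterols are plentiful, and activates the genes of the pathway when sterols fall. In mammalian liver most genes of the pathway are known targets of SREBP2. The liver is also where cholesterol is packed into lipoproteins or turned into bile acids.

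SQLE ran from 37.91 to 119.0 TPM in the high SQLE libraries, with a median of 57.73 TPM, and from 4.36 to 19.98 TPM in the low SQLE libraries, with a median of 12.88 TPM. The medians differ 4.48-fold, and the highest library stands 27.3-fold above the lowest. At the edges of the choice, the last high library (9 g/kg replicate 2) had 37.91 TPM and the first one left out (1.8 g/kg replicate 6) had 34.42 TPM. The first low library (9 g/kg replicate 6) had 19.98 TPM and the nearest one left out (1.8 g/kg replicate 4) had 20.46 TPM, so neither edge is a gap in the values.

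**Figure D1:**
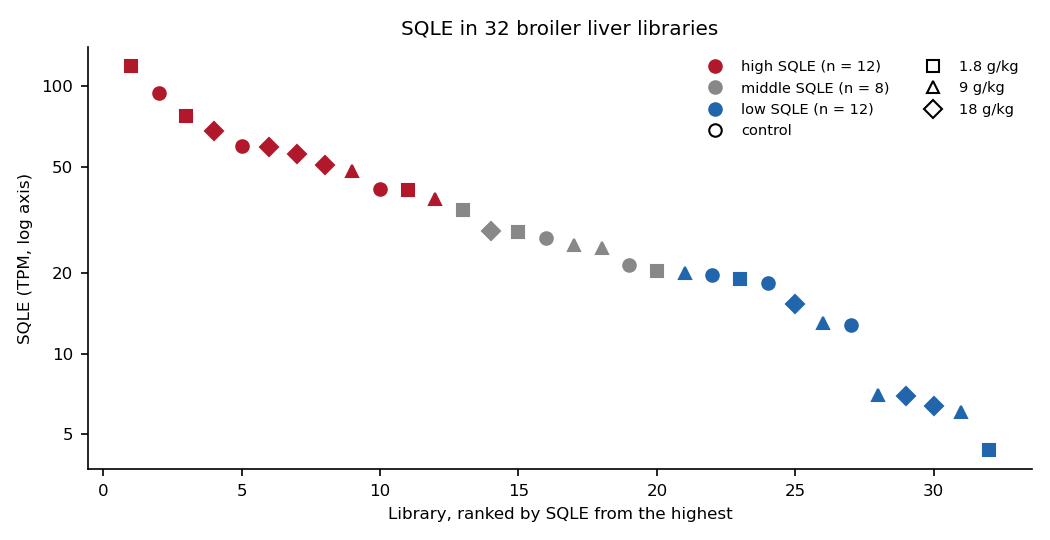
SQLE level in TPM (log axis) of each of the 32 liver libraries, ranked from the highest to the lowest, with colour for the SQLE group and symbol for the added arginine in g/kg. The levels fall from 119.0 to 4.36 TPM, and every diet has libraries at both ends.

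Each diet had libraries in both groups. The control diet gave 3 high and 3 low libraries, 1.8 g/kg gave 3 high and 2 low, 9 g/kg gave 2 high and 4 low, and 18 g/kg gave 4 high and 3 low. Median SQLE was 24.2 TPM without added arginine, 31.52 TPM at 1.8 g/kg, 22.44 TPM at 9 g/kg and 39.69 TPM at 18 g/kg, and within each diet the levels spanned several-fold. Diet was a term of the fit.

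The table held 25619 genes, and 11338 with a mean of at least 1 TPM, SQLE left out, were tested. Sequencing depth is unknown because the values are not counts. Mitochondrially encoded genes made up a median of 22.2% of TPM in high and 21.6% in low SQLE libraries. Medians are given for 3 library measures, but the test compared the group means (permutation test, two-sided, adjusted p = 0.531 for this one). The 10 most abundant genes made up 30.1% and 31.1% (adjusted p = 0.289), and 11080 and 10910 genes reached 1 TPM (adjusted p = 0.531). Of the W-linked gene HINTW, which is read in female birds, a value above 0 was listed in 5 of 12 high, 7 of 12 low and 0 of 8 middle libraries. The summed level of 21 hepatocyte markers had a median of 147100 TPM in high and 143300 TPM in low SQLE libraries, so hepatocyte RNA was abundant in both groups, and none of the 19 markers tested was called. In bulk tissue, fewer cells of a type and less RNA per cell cannot be told apart.

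The livers with high SQLE had more RNA for most of the sterol pathway, from MVK to DHCR7, and for SREBF2. MSMO1, FDPS, FDFT1, CYP51A1 and DHCR7 were 3.49 to 4.06 times higher, and SREBF2 1.99 times higher, on the log2(TPM + 1) scale. The first enzymes, ACAT2 and HMGCS1, and the regulator INSIG1 were not called, with estimates near 0. In all, 26 of the 11338 genes were called at a Benjamini-Hochberg adjusted p below 0.05 (limma), 0.229% of those tested. Of these, 25 were higher (0.22%) and 1, NRBP2, was lower (0.00882%). The list of sterol synthesis genes had 17 tested members besides SQLE, of which 12 were called higher and 0 lower, with a median log2 difference of 1.49, against 0.04 over all genes tested.

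Fold changes were computed on log2(TPM + 1), which understates the change of low genes. For 7 genes (0.0617% of those tested) every high SQLE library lay above every low one, among them MSMO1, FDPS, LSS, CYP51A1, DHCR7 and SREBF2. No gene had all high SQLE libraries below all low ones (0%).

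**Figure D2:**
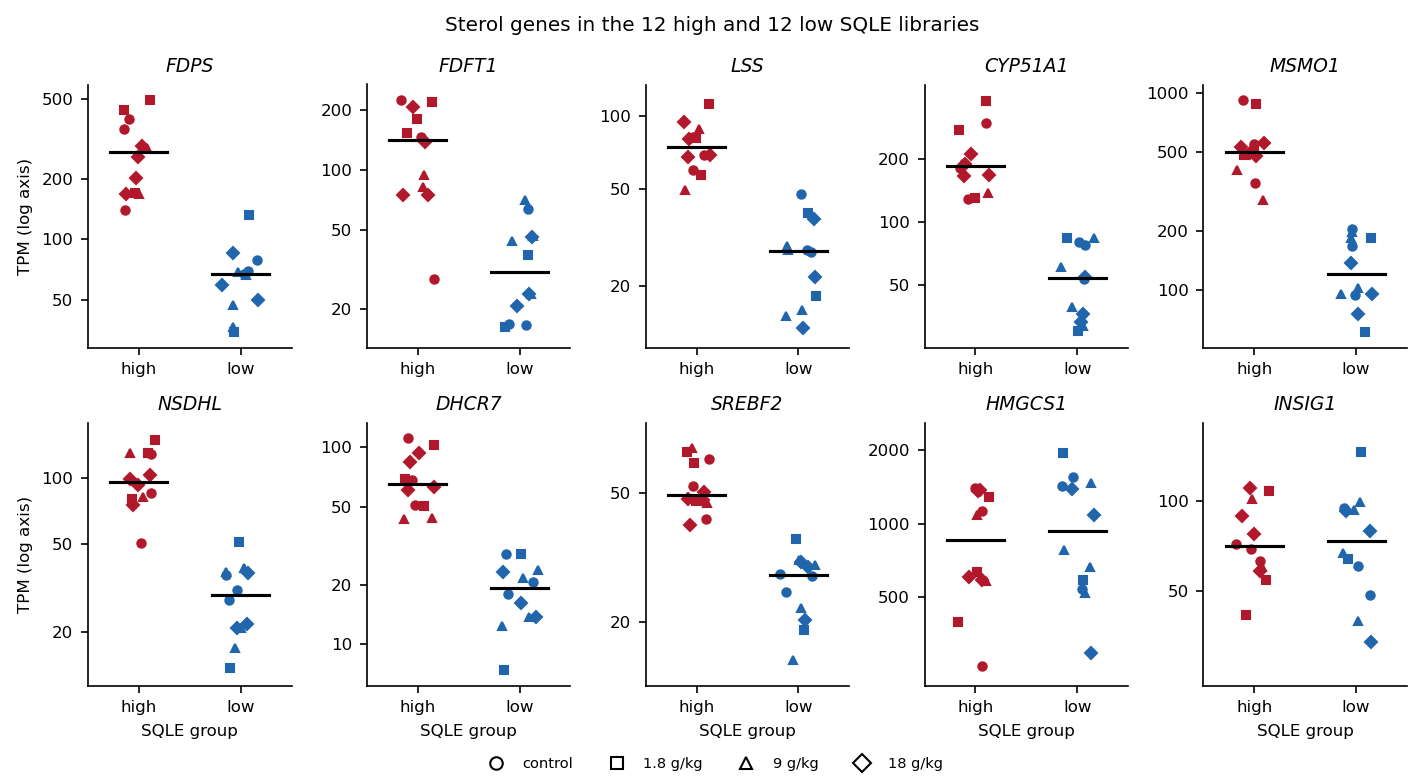
TPM (log axis) of 10 sterol genes in each of the 12 high (left) and 12 low (right) SQLE libraries, with symbols for the diet and bars at the group medians. LSS, FDPS, CYP51A1, MSMO1, DHCR7 and SREBF2 do not overlap between groups, whereas HMGCS1 and INSIG1 have medians of 857.3 against 932.4 and 70.36 against 73.14 TPM.

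At the entry of the mevalonate pathway, ACAT2 and HMGCS1 were not called. ACAT2, which joins acetyl-CoA units in the cytosol, had 174.2 to 382.5 TPM (median 267.1) in high and 161.3 to 451.6 TPM (median 298.1) in low SQLE libraries. HMGCS1, the cytosolic HMG-CoA synthase, had 262.5 to 1391 TPM (median 857.3) in high and 296.9 to 1939 TPM (median 932.4) in low SQLE libraries. Both groups overlapped over most of their range for these genes. The log2 difference was -0.09 for ACAT2 (95% interval -0.44 to 0.26, adjusted p = 0.932) and -0.19 for HMGCS1 (-0.89 to 0.50, adjusted p = 0.923), so a 2-fold rise lies outside both intervals.

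Of the kinases of mevalonate, MVK was called and PMVK was not. MVK, mevalonate kinase, had 14.38 to 36.03 TPM (median 22.8) in high and 11.97 to 15.79 TPM (median 13.36) in low SQLE libraries, a difference of 0.70 ± 0.13 (limma adjusted p = 0.0102). The MVK call was lost after rescaling, with 8 or 16 libraries per group, with 3 against 3 within each diet and with a replicate block. PMVK, phosphomevalonate kinase, had medians of 54.64 TPM in high and 37.73 TPM in low libraries and was not called (0.38 ± 0.13, limma adjusted p = 0.539). Its slope over 32 libraries was called (limma adjusted p = 0.0403). The 95% intervals of MVK (0.43 to 0.97) and PMVK (0.10 to 0.65) overlapped, and a difference between them was not tested. MVD, which removes the carboxyl group to give isopentenyl diphosphate, was higher by 1.30 ± 0.20 (limma adjusted p = 0.00185), with 17.01 to 52.03 TPM in high and 5.06 to 21.11 TPM in low libraries. IDI2, named for isopentenyl-diphosphate isomerase and in none of the gene lists, was higher by 1.28 ± 0.21 (limma adjusted p = 0.00302), with medians of 275.1 TPM in high and 99.05 TPM in low libraries.

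FDPS makes farnesyl diphosphate, the last intermediate shared with the other isoprenoids, and FDFT1 joins a pair of them into squalene, the substrate of SQLE. FDPS had 139.3 to 489.3 TPM (median 270.4) in high and 34.87 to 132.2 TPM (median 67.25) in low SQLE libraries, with no overlap (1.98 ± 0.22, limma adjusted p = 2.64e-05). FDFT1 had 28.37 to 223.9 TPM (median 142.0) in high and 16.24 to 70.73 TPM (median 30.57) in low SQLE libraries. All but 1 of the high libraries lay above every low one for FDFT1 (1.89 ± 0.33, limma adjusted p = 0.00446). In the 12 tested genes of the isoprenoid branches that leave the pathway at this point, 0 were called in limma (1 had an unadjusted p below 0.05) and the median difference was 0.06.

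LSS, the cyclase that folds squalene epoxide into lanosterol, had 49.73 to 112.8 TPM (median 75.03) in high and 13.31 to 47.89 TPM (median 27.74) in low SQLE libraries (1.49 ± 0.19, limma adjusted p = 8.75e-05). CYP51A1, the demethylase that acts on lanosterol, had 128.9 to 379.2 TPM (median 184.9) in high and 30.1 to 84.26 TPM (median 53.81) in low SQLE libraries (1.87 ± 0.21, limma adjusted p = 2.64e-05). Neither gene overlapped between the groups.

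MSMO1, NSDHL and HSD17B7 remove the methyl groups at carbon 4 of the sterol. MSMO1 had the highest estimate of the called genes, with 287.1 to 916.4 TPM (median 498.0) in high and 61.55 to 204.1 TPM (median 120.3) in low SQLE libraries (2.02 ± 0.22, limma adjusted p = 2.64e-05). NSDHL had medians of 95.36 TPM in high and 29.35 TPM in low libraries (1.77 ± 0.21, limma adjusted p = 3.37e-05). HSD17B7 had medians of 34.28 TPM in high and 14.0 TPM in low libraries (1.22 ± 0.20, limma adjusted p = 0.00302). For NSDHL and HSD17B7, 11 of 12 high libraries lay above every low one.

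Of the closing enzymes, DHCR7 was called and SC5D was not. DHCR7, which reduces 7-dehydrocholesterol to cholesterol, had 43.3 to 111.3 TPM (median 65.42) in high and 7.37 to 28.83 TPM (median 19.3) in low SQLE libraries (1.80 ± 0.20, limma adjusted p = 2.64e-05). SC5D, the desaturase that acts before DHCR7, had medians of 152.5 TPM in high and 95.62 TPM in low libraries and was not called (0.51 ± 0.13, limma adjusted p = 0.24), although all 12 high libraries lay above the mean of the low ones. LBR, a nuclear envelope protein with sterol reductase activity, was not called either (0.24 ± 0.13, limma adjusted p = 0.745). The list of sterol synthesis held 20 genes, of which 17 had values under the listed names, and all 17 were tested. IDI1, EBP and TM7SF2 were not analysed here.

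**Figure D3:**
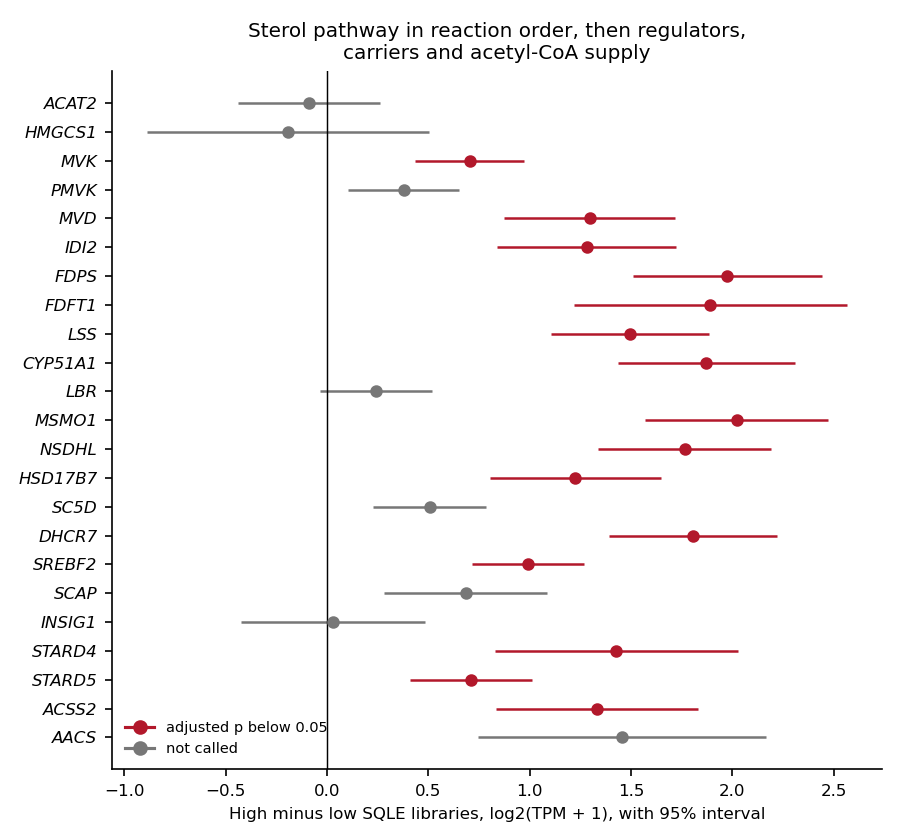
Log2(TPM + 1) difference, high minus low SQLE libraries, with its 95% interval, for sterol genes in reaction order from top to bottom, followed by regulators, sterol carriers and genes of acetyl-CoA supply. Called genes are red; ACAT2 and HMGCS1 at the top lie at -0.09 and -0.19, whereas FDPS lies at 1.98 and MSMO1 at 2.02.

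Among the regulators, SREBF2 had 39.7 to 68.37 TPM (median 49.03) in high and 15.3 to 36.02 TPM (median 27.91) in low SQLE libraries (0.99 ± 0.13, limma adjusted p = 0.000208). The groups did not overlap. SCAP, the escort of SREBP2, had medians of 39.35 TPM in high and 21.69 TPM in low libraries and was not called (0.68 ± 0.19, limma adjusted p = 0.327). INSIG1, which retains the complex and is itself a target of it in mammals, had 41.48 to 110.2 TPM in high and 33.52 to 146.2 TPM in low libraries, a difference of 0.03 with a 95% interval of -0.42 to 0.48 (limma adjusted p = 0.982). SREBF1, which encodes the SREBP of fatty acid synthesis, differed by 0.06 (interval -0.42 to 0.53, limma adjusted p = 0.972).

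The list of sterol uptake and sensing had 19 tested members, of which 2, SREBF2 and STARD4, were called higher and 0 lower, with a median difference of 0.03. STARD4, a carrier that moves sterol between membranes, had 8.39 to 50.51 TPM (median 26.19) in high and 4.5 to 16.84 TPM (median 6.465) in low SQLE libraries (1.43 ± 0.29, limma adjusted p = 0.0282). STARD5, of the same carrier family but in none of the lists, had 11.11 to 35.37 TPM in high and 6.25 to 13.7 TPM in low libraries (0.71 ± 0.15, limma adjusted p = 0.0316). Each of these carriers was called in 9 of the 24 fits that left out 1 library. LIPA, the lysosomal lipase that frees cholesterol from its esters, was not called (0.64 ± 0.22, limma adjusted p = 0.539).

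Beyond synthesis, sterol disposal was not called between the high and low libraries. The list of sterol export and bile acid genes had 0 of 20 members called in limma, with 3 at an unadjusted p below 0.05 and a median difference of -0.04. CYP7A1, the rate-limiting enzyme of bile acid synthesis, had 4.01 to 294.9 TPM (median 126.8) in high and 11.42 to 77.42 TPM (median 27.66) in low SQLE libraries. For CYP7A1, 9 of 12 high libraries lay above every low one, but the high group also held its lowest value, and the test did not pass (1.61 ± 0.51, limma adjusted p = 0.457). ABCG5 and ABCG8, the partners that form the sterol exporter, differed by -0.04 and 0.31 and were not called. LCAT, which esterifies plasma cholesterol, differed by -0.47 ± 0.18 (limma adjusted p = 0.571).

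Of the genes of fatty acid synthesis, 1 of 21 was called, and the list median was 0.41, or 0.26 without 18 g/kg replicate 4. That gene was ACSS2, which makes cytosolic acetyl-CoA from acetate, with 22.56 to 98.52 TPM (median 61.02) in high and 10.18 to 53.62 TPM (median 19.41) in low SQLE libraries (1.33 ± 0.24, limma adjusted p = 0.00858). FASN, fatty acid synthase, had medians of 87.56 TPM in high and 35.56 TPM in low libraries and was not called (1.18 ± 0.29, limma adjusted p = 0.164). ACACA, acetyl-CoA carboxylase, differed by 0.99 ± 0.31 (limma adjusted p = 0.457), and SCD, the desaturase, by 1.44 ± 0.62 (limma adjusted p = 0.666). Of the 12 high libraries, 9 lay above every low one for FASN and 7 for ACACA. In the list, 7 genes had a positive and 1 a negative difference at an unadjusted p below 0.05. Within all 4 diets 10 of the 21 were positive and 3 negative, against 6.32% and 5.49% of all genes tested.

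The other called genes lie outside the lists. RDH11, a retinol dehydrogenase, had 6.84 to 26.25 TPM (median 12.75) in high and 1.63 to 8.16 TPM (median 4.245) in low SQLE libraries (1.51 ± 0.22, limma adjusted p = 0.000804). METTL23, an arginine methyltransferase in mammals, had medians of 9.24 TPM in high and 4.44 TPM in low libraries (0.90 ± 0.14, limma adjusted p = 0.00185). For each of them 10 of 12 high libraries lay above every low one.

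PCLAF, a partner of the replication clamp PCNA, was higher by 1.39 ± 0.28 (limma adjusted p = 0.0256), and SERPINA10, a plasma protease inhibitor, by 0.60 ± 0.12 (limma adjusted p = 0.0304). SERPINA10 was the more abundant of the pair, with medians of 585.8 TPM in high and 391.7 TPM in low libraries. NRBP2, named for nuclear receptor binding, was the called gene that was lower. It had 4.83 to 12.39 TPM (median 8.11) in high and 7.41 to 21.55 TPM (median 13.66) in low libraries (-0.70 ± 0.14, limma adjusted p = 0.0282). Calls were kept in 15 of the 24 fits without 1 library for PCLAF, 11 for SERPINA10 and 14 for NRBP2, and in all 24 for 20 of the 26 called genes.

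Some of the called genes are neighbours in the chicken reference annotation (GRCg7b). MMAB, an enzyme of vitamin B12 metabolism, lies beside MVK and had 16.2 to 38.17 TPM (median 26.75) in high and 10.82 to 18.17 TPM (median 15.43) in low SQLE libraries (0.73 ± 0.12, limma adjusted p = 0.00302). In mammals these genes share a promoter region that SREBP2 binds. LOC107054034, a called long non-coding RNA, had medians of 9.805 TPM in high and 2.615 TPM in low libraries (1.55 ± 0.25, limma adjusted p = 0.00202). LOC124417220, a long non-coding RNA beside AACS, had 0.84 to 9.26 TPM in high and 0.15 to 1.63 TPM in low libraries (1.07 ± 0.20, limma adjusted p = 0.0102).

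AACS, which makes acetoacetyl-CoA in the cytosol, was named here after its values were seen. It had medians of 18.3 TPM in high and 4.765 TPM in low libraries and was not called (1.46 ± 0.34, limma adjusted p = 0.131). The kit keeps strand, but the sources used here do not say whether quantification used it, so reads of overlapping or adjacent genes may be shared. Of 34 tested neighbours of called genes, 4 were called, among them MVK and MMAB, and the other 30 had a median difference of 0.06. Among those 30, and named after their values were seen, CETN1 beside NSDHL differed by 0.76 ± 0.18 (limma adjusted p = 0.137) and KLHL2 beside MSMO1 by 0.49 ± 0.12 (limma adjusted p = 0.16).

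The 8 libraries with middle SQLE took no part in the fit. Their median lay between the high and low medians for 26 of 26 called genes, as it did for 35.3% of all genes tested. The called genes were picked for a wide gap between high and low libraries, which by itself makes a middle median inside it likely. The comparison with all genes is therefore a description and no separate support. In the middle libraries MSMO1 had a median of 260.6 TPM, FDPS 126.5 TPM, CYP51A1 101.8 TPM and SREBF2 36.93 TPM. Over all 32 libraries, with diet as a term, the 10 genes most like SQLE by the moderated t of the slope on log2(SQLE TPM + 1) included CYP51A1, DHCR7, NSDHL, MSMO1, FDPS, LSS, RDH11 and SREBF2, in that order. CYP51A1 changed by 0.83 ± 0.03 log2 units per log2 unit of SQLE (SE), and SREBF2 by 0.42 ± 0.04. The slope called 55 genes (0.485%), among them all 26 genes above, and also AACS, ERG28, ACACA, FASN, CYP7A1, SC5D and PMVK. It used the SQLE values that set the groups, and its 32 libraries include the high and low ones that made the 26 calls. The overlap is therefore largely built in and is no separate support. Slope p-values of genes not called between the groups, here and elsewhere, share those libraries and are no independent test. Outside sterol and lipid synthesis, the slope called 2 genes of the unfolded protein response, HSP90B1 (limma adjusted p = 0.0428) and PDIA4 (0.0271), both with a positive slope. It also called GSTA2, a glutathione transferase (0.036, positive), and EHHADH of fatty acid oxidation (0.0428, negative). These are a selection, as 41 of the 55 genes had a positive and 14 a negative slope. Others are in none of the gene lists, such as ASB5 (limma adjusted p = 0.00359, positive), PGM3 (0.00696, positive) and NAPRT (0.00927, negative). AACS, ERG28, PDIA4, GSTA2, ASB5, PGM3 and NAPRT were named after their values were seen.

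**Figure D4:**
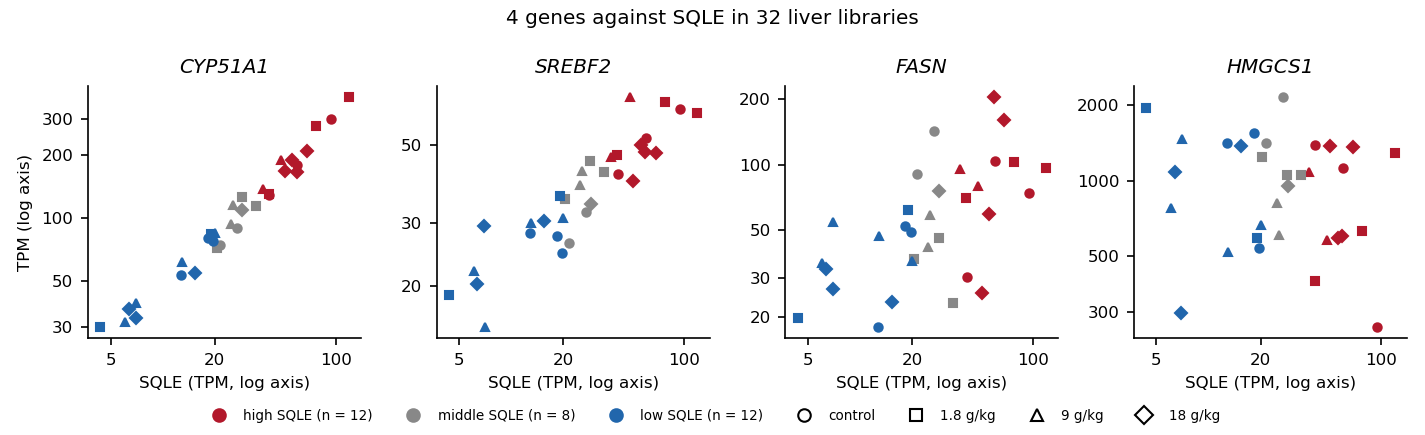
TPM of CYP51A1, SREBF2, FASN and HMGCS1 (log axes) against SQLE in 32 liver libraries, with colour for the SQLE group and symbol for the diet. CYP51A1 follows SQLE closely, with a slope of 0.83, SREBF2 rises less, with 0.42, FASN scatters more, with 0.49, and HMGCS1 has a slope of -0.15.

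The pattern was seen in each diet. All 25 called higher genes were higher in high SQLE libraries within all 4 diets, as were 6.32% of all genes tested, and NRBP2 was lower in all 4, as were 5.49%. These within-diet values come from the libraries that made the calls. CYP51A1 differed by 1.45 in control libraries, 2.23 at 1.8 g/kg, 1.66 at 9 g/kg and 2.15 at 18 g/kg. A test of whether the difference depends on the diet called 0 genes (0%, limma interaction, lowest adjusted p = 0.418, 620 genes at an unadjusted p below 0.05). Of the called genes, IDI2 alone had an unadjusted interaction p below 0.05, and its limma adjusted p was 0.821. IDI2 differed by 0.68 in control libraries, 1.54 at 1.8 g/kg, 0.56 at 9 g/kg and 2.18 at 18 g/kg.

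No other list had a called member between the high and low libraries in limma. Over all 11338 genes 59.5% of differences were positive, and 790 genes had an unadjusted p below 0.05, 481 with a positive and 309 with a negative difference. The list counts are to be read against those shares. All 20 tested genes of the unfolded protein response had positive differences (median 0.49, 13 at an unadjusted p below 0.05). Within all 4 diets 3 of the 20 were positive, against 6.32% of all genes tested. The smallest p was that of HSP90B1, the chaperone GRP94 (1.04 ± 0.33, limma adjusted p = 0.457, and 0.0428 for the slope over 32 libraries). In order of added arginine, control first, HSP90B1 differed by 2.19, 1.66, 0.38 and 0.11 within the diets (limma interaction adjusted p = 0.821). Of the interferon response genes 23 of 24 had positive differences, with a median of 0.58 and 14 at an unadjusted p below 0.05. The median was 0.40 without control replicate 7, and 14 of the 24 were positive within all 4 diets. Their summed level was 1274 to 20040 TPM (median 2125) in high and 885.9 to 2864 TPM (median 1111) in low SQLE libraries. Among acute phase genes 16 of 18 were positive (median 0.45, 7 at an unadjusted p below 0.05), and 8 of the 18 within all 4 diets. Examples are SAA (1.74 ± 0.48, limma adjusted p = 0.302) and CP, ceruloplasmin (0.98 ± 0.24, limma adjusted p = 0.158). That list is mixed and shares members with the hepatocyte markers, among them TTR (0.42), AHSG (0.32) and ALB (-0.11).

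Of the macrophage and Kupffer cell markers 14 of 15 were positive, with a median of 0.72, 2 at an unadjusted p below 0.05 and 2 positive within all 4 diets. Their summed level was 693.9 to 2836 TPM in high and 481.6 to 2431 TPM in low libraries, and the part of these cells in the other differences was not tested. Cell cycle genes were positive in 22 of 23 (median 0.34, or 0.21 without 18 g/kg replicate 5, with 1 at an unadjusted p below 0.05). Within all 4 diets 6 of the 23 were positive. DIO2, the deiodinase that activates thyroid hormone, had medians of 14.62 TPM in high and 1.385 TPM in low libraries (2.77 ± 0.68, limma adjusted p = 0.158).

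The lowest list medians were those of fasting metabolism. Of the genes of fatty acid oxidation and ketogenesis 17 of 22 were negative (median -0.24, 8 at an unadjusted p below 0.05). Negative within all 4 diets were 9 of the 22, against 5.49% of all genes tested. EHHADH, of peroxisomal oxidation, had medians of 366.4 TPM in high and 580.4 TPM in low libraries (-0.66 ± 0.18, limma adjusted p = 0.24, and 0.0428 for the slope over 32 libraries). CPT1A, the carrier that admits fatty acids to mitochondria, differed by -1.36 ± 0.50 (limma adjusted p = 0.571).

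Genes of gluconeogenesis and fasting were negative in 17 of 18 (median -0.35, 4 at an unadjusted p below 0.05). Within all 4 diets 3 of the 18 were negative, against 5.49% of all genes tested. CREB3L3, a fasting-induced factor of liver, differed by -0.87 ± 0.23 (limma adjusted p = 0.24). PCK1, the gluconeogenic carboxykinase, ran from 0.47 to 155.3 TPM (median 8.675) in high and from 1.03 to 1352 TPM (median 15.06) in low libraries. Its difference was -1.92 ± 1.12 (limma adjusted p = 0.755), and the low group reached beyond the high one. Within the diets PCK1 differed by -3.53 in control libraries, -2.90 at 1.8 g/kg, -2.13 at 9 g/kg and 0.33 at 18 g/kg. Purine synthesis genes were negative in 13 of 15 (median -0.20, 3 at an unadjusted p below 0.05), led by ATIC, a late enzyme of purine ring synthesis (-0.79 ± 0.22, limma adjusted p = 0.312). The purine median was -0.13 without control replicate 3, -0.10 without 9 g/kg replicate 8, -0.12 without 1.8 g/kg replicate 5 and -0.13 without 1.8 g/kg replicate 3. AGMAT, agmatinase of arginine breakdown, differed by -0.35 ± 0.14 (limma adjusted p = 0.643).

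**Figure D5:**
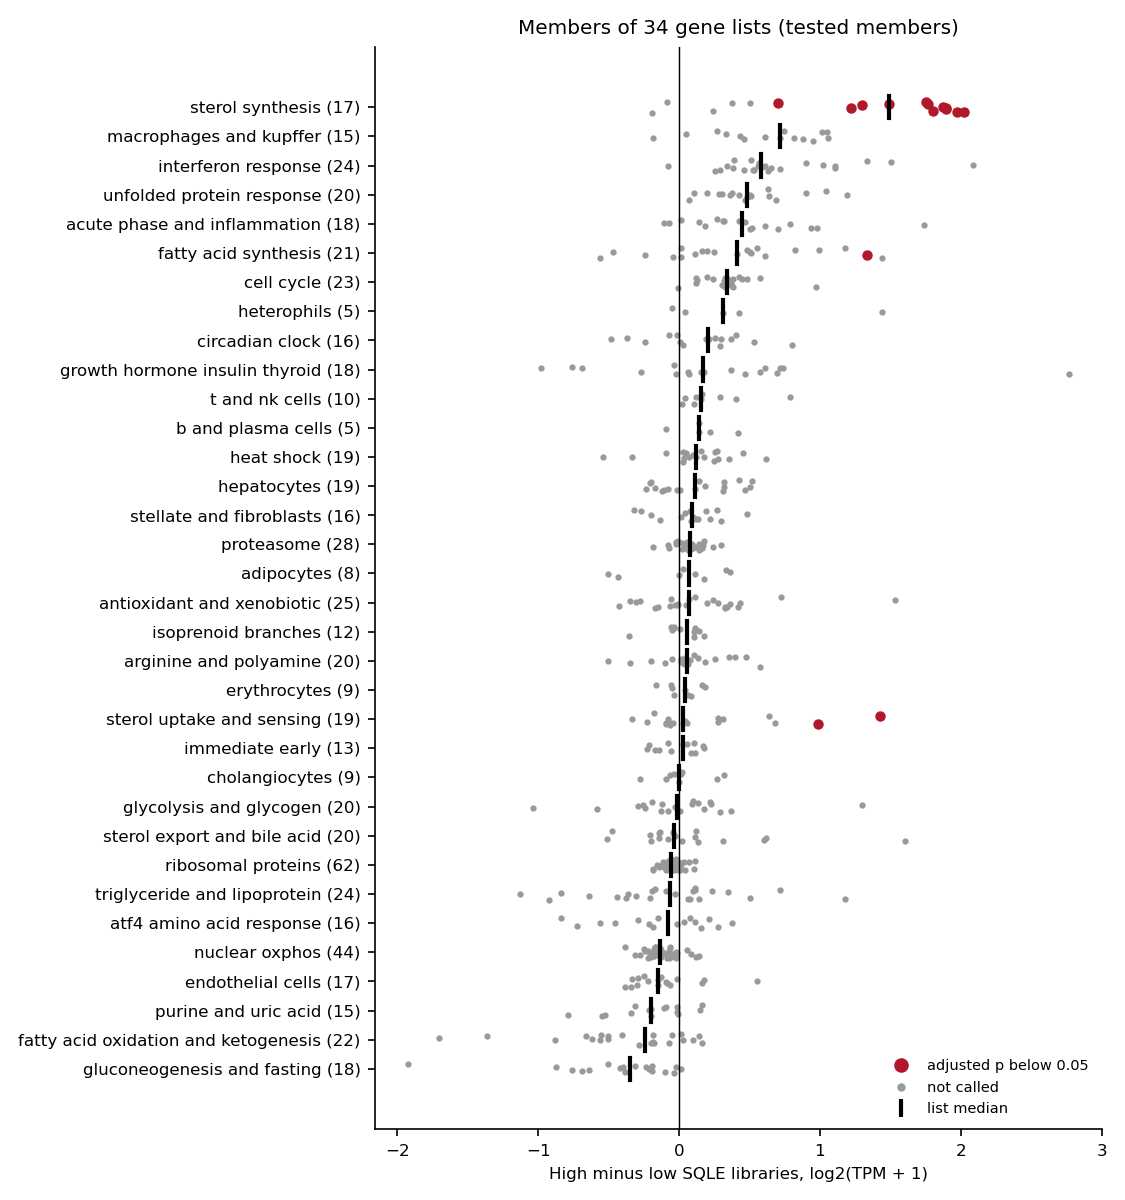
Log2(TPM + 1) difference, high minus low SQLE libraries, of every tested member of 34 gene lists, with the number of members in brackets, called genes in red and a bar at the median of each list. Sterol synthesis has the highest median, 1.49; the medians of the other lists lie between -0.35 and 0.72.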

How the data were processed

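Liver messenger RNA of 32 broiler libraries was measured by poly(A)-selected, stranded sequencing on a NovaSeq X Plus, per the labels' protocols. The authors deposited 1 table of TPM for 25619 genes, and fastp, HISAT2, StringTie and RSEM were used, per the submitters' processing notes; versions, roles and genome build are not given in the sources used here. The series' design text counts more liver samples than the 32 analysed here. TPM scales each library to a fixed total (998707 to 999281 here), so depth is unknown, no counting interval can be given, and a rise of abundant genes lowers the share of others. Gene names followed the table, and 25368 matched the reference table (GRCg7b).

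Libraries were ranked by SQLE TPM, and the 12 highest were compared with the 12 lowest in a linear model of log2(TPM + 1) with SQLE group and diet, fitted with limma 3.58.1 (lmFit, eBayes with trend) in R 4.3.3. Genes averaging 1 TPM or more over the 32 libraries entered, 2-sided p-values were adjusted by Benjamini-Hochberg over 11338 genes, and genes were called below 0.05. The fit was also run on simulated data, with the residuals of each gene shuffled separately. That shuffling breaks the correlation between genes, so it cannot show how false calls behave where genes move together. Library measures were compared by permutation tests of the difference of means with 100000 resamples.

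The members, the 34 gene lists and the tests were chosen with earlier results of these data known. Named were the tested sterol synthesis genes, from each other list the 4 genes with the smallest p, the 10 genes higher and 10 lower with the smallest p, fixed genes of interest, the 10 genes most like SQLE, and the other called genes; a selection of these is described. Alternatives were another pseudocount, filters, rescaling, no diet term, other group sizes, a slope, choice within diets, a replicate block, a HINTW term, no variance trend, library weights and leaving out each library. Some called or named genes are counted but not reported here by name.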

Additional observations from a re-analysis of the deposited data

Results flagged for a closer look

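For SQLE, the called genes and the library measures, the 8 libraries of each diet were searched for a value that stands far from the rest. Of 120 groups, 10 held one. Chance flags about 1 in 20 where values are independent and normally spread, which TPM of genes that move together need not be. None of the flagged values was explained or tested further.

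Control replicate 7, of the high SQLE group, stood apart for HSD17B7, with 80.02 TPM against 12.46 to 38.46 TPM in the other 7 control libraries, for STARD4, with 50.51 against 5.05 to 25.85 TPM, and for STARD5, with 35.37 against 9.99 to 15.31 TPM. Control replicate 3, also high, stood apart for LOC124417220, with 9.26 against 0.15 to 2.51 TPM, for MMAB, with 30.12 against 15.1 to 21.54 TPM, and for RDH11, with 17.3 against 4.74 to 10.37 TPM.

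At 9 g/kg, replicate 8 of the high group had 88.96 TPM of LSS, against 15.02 to 49.73 TPM in the others of that diet, and 52.03 TPM of MVD, against 5.06 to 25.02 TPM. Replicate 1 of the low group had 21.55 TPM of NRBP2, against 6.64 to 11.78 TPM. At 1.8 g/kg, replicate 8, the library with the highest SQLE, had 776.6 TPM of SERPINA10, against 370.2 to 557.8 TPM.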

How the results depend on the processing

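In the 24 fits without 1 library, 20 to 28 genes were called, 20 to 27 higher and 0 to 2 lower, and the sterol synthesis members called stayed at 12 of 17. Over the 13 other alternatives, 11 to 14 of those members were called, 13 of the 26 genes were called in every one, and none of the 26 reversed. The 8 highest against the 8 lowest libraries called 17 genes, 16 of them higher, and the slope on SQLE called 55, with 41 higher and 14 lower. Genes called lower numbered 2 after rescaling to median ratios, 2 with 16 against 16 libraries and 4 with 3 against 3 within each diet. There were 0 with library weights (limma; 205 lower at an unadjusted p below 0.05).

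Replicate numbers showed no clear pairing of the libraries, which does not exclude one. The 48 same-numbered pairs correlated at -0.305 to 0.367 (median 0.0289), against a median of -0.0067 for pairs of different numbers. Of 32 libraries, 6 correlated best with their own number. A replicate block called 17 genes and 0 lower (limma; 603 lower at an unadjusted p below 0.05), and 15 of the 26 genes were among the 17.

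Rescaling moved the median of all genes from 0.04 to 0.00 and ended the calls of MVK (adjusted p = 0.0943), PCLAF (0.0612), SERPINA10 (0.167) and STARD5 (0.101) in limma. Without sequencing depth, the error of low values such as LOC124417220 cannot be set. The groups come from 1 measured gene, so these results describe genes that move with SQLE and no treatment.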
